A study of Homo sapiens with 6 samples.

Results

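Toll-like receptors, NOD-like receptors and the inflammasome are the means by which a cell reads microbial molecules and the debris of damaged neighbours. The 10 genes described here, all of this system, were measured in HK-2 cells, an immortalized line of human proximal tubule epithelium: the cell surface receptors TLR2, TLR4 and TLR6, the endosomal receptor TLR3, the adaptor MYD88, the cytosolic sensors NOD1 and NLRP1, and the inflammasome parts PYCARD, CASP1 and GSDMD. The members were taken as the rows of the deposited gene count table that carry these 10 symbols, out of 31831 rows. Each symbol had 1 row.

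The study asked what more of the RNA-binding protein hnRNP-F does to the transcriptome of tubule cells kept in high glucose. All 6 libraries came from HK-2 cells held in 30 mM glucose for 72 h. The 3 HG-NC libraries carried the control plasmid, and the 3 HG-OE libraries came from cells overexpressing HNRNPF. The study's methods describe both constructs as lentiviral, without the promoter that drives the insert, and give 4 wells run side by side per group. The study describes the 3 libraries of a group as biological replicates of this 1 cell line, and the labels do not name separate cultures, so p-values measure the spread between these libraries. The libraries held 25507595 to 29444841 counts each. HNRNPF itself rose from 311 ± 7.23 CPM in HG-NC to 435 ± 14.9 CPM with overexpression (SD, n = 3 each), where CPM is the count scaled to library size by TMM, a log2 fold change of 0.48 (SE 0.0388, edgeR adjusted p = 2.80e-07). Renal epithelial markers such as PAX8, KRT8, KRT18 and HAVCR1 were present. Of the markers of mature proximal tubule, LRP2, AQP1, ANPEP and CUBN had at most 17 counts in any library, apart from 54 of ANPEP in HG-OE replicate 3. SLC5A2 had 73 to 127 counts per library, GGT1 20 to 42 and SLC34A1 12 to 23. HG-OE replicate 3 stood apart: its log2 CPM correlated with HG-OE replicates 1 and 2 at 0.987 each, while those correlated with each other at 0.995, keratin KRT5 had 334 counts there and 0 in the other 5 libraries, and the liver gene ALB had 4359 counts there against 0 to 78 elsewhere. Each member's change is therefore also given without this library.

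TLR2 works with TLR1 or TLR6 to recognize bacterial lipoproteins, TLR4 recognizes lipopolysaccharide with CD14 and LY96, and TLR3 recognizes double-stranded RNA. All of these except TLR3 signal through MYD88 towards NF-kB and the MAP kinases. NOD1 senses a peptidoglycan fragment and signals through the kinase RIPK2. Inflammasomes form when a sensor such as NLRP1 or NLRP3 recruits the adaptor ASC, the product of PYCARD, and through it caspase-1. Caspase-1 matures IL-1 beta and IL-18 and cuts gasdermin D, whose fragment opens pores in the cell membrane. In the tubule, TLR2, TLR4 and this machinery are known for their part in sterile inflammation.

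TLR4, MYD88 and NOD1 rose by about 2-fold or more, GSDMD rose by less, and TLR3 and PYCARD fell. Of the 10 members, 9 had enough counts to be tested, CASP1 being the exception. At an adjusted p under 0.05, 4 of the 9 rose, against 25.9% of all 17142 genes tested, and 2 fell, against 25.9%. TLR4 and MYD88 also passed 2-fold, 2 of 9 where 3.69% of all genes did so, and none of the 9 fell by 2-fold, where 2.13% of all genes did. These shares of 9 genes are descriptions and were not tested against the background. The 3 others, TLR2, TLR6 and NLRP1, did not pass. The median log2 fold change of the 9 was 0.26, and that of all genes tested was 0.011. The HG-OE and HG-NC values did not overlap in 8 of the 9, NLRP1 being the exception, where 59.0% of all genes tested had groups that did not overlap. Without HG-OE replicate 3, the same 6 members passed in the same direction.

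**Figure D1:**
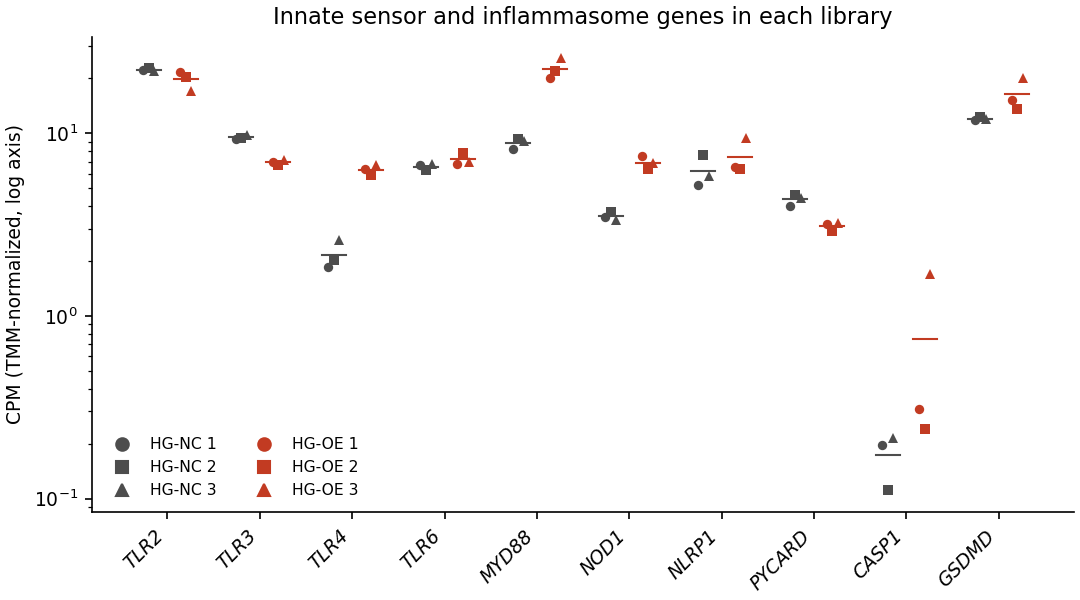
CPM of the 10 genes in each library on a log axis, with HG-NC in grey, HG-OE in red, a marker shape for each replicate number and a bar at each group mean. TLR4, MYD88 and NOD1 lie well apart between the groups, NLRP1 overlaps, and CASP1 is high in HG-OE replicate 3 (1.71 CPM) and at 0.111 to 0.310 CPM in the other 5 libraries.

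The promoters of the 3 genes with the largest rises and of TLR3, the member receptor that fell, are shown for reference beside the values. Each window is the 250 bases before the RefSeq start on GRCh38.p14, read on the gene's strand, with capitals at matches to the motifs searched. RefSeq and GENCODE v44 place some starts differently, and by the GENCODE gene spans given with each gene 228 bases of the TLR4 window, 245 of the TLR3 window and 109 of the MYD88 window lie inside the gene, and none of the NOD1 window. The TLR4 window is chr9:117704153-117704402, plus strand. The MYD88 window is chr3:38138411-38138660, plus strand. The NOD1 window is chr7:30478785-30479034, minus strand. The TLR3 window is chr4:186068906-186069155, plus strand.
TLR4: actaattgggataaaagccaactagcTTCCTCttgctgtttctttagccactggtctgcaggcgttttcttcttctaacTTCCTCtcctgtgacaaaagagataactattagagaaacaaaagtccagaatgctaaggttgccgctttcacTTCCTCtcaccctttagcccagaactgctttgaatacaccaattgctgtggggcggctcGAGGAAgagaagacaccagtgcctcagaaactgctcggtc
MYD88: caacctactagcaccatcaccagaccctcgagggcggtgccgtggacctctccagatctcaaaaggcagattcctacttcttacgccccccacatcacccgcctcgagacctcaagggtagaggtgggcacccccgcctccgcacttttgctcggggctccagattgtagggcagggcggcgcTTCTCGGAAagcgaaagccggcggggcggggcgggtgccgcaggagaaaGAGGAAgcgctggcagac
NOD1: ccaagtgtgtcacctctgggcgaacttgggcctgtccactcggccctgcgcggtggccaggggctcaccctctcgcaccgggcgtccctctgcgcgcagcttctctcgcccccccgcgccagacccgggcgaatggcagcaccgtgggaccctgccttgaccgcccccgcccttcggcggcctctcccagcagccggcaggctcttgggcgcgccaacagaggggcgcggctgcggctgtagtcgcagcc
TLR3: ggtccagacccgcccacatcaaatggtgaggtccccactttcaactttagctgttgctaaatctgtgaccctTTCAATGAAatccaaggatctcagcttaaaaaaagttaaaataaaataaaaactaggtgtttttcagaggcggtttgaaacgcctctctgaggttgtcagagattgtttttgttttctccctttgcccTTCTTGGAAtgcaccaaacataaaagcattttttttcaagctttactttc
The 4 motifs searched, on both strands, were the NF-kB consensus, the AP-1 site TGANTCA, the STAT-type site TTCNNNGAA and GAGGAA, the core bound by PU.1. The TLR4 window held 4 copies of the PU.1 core, the nearest at 40 to 35 bases before the start. The MYD88 window held 1 PU.1 core at 18 to 13 bases and 1 STAT-type site at 67 to 59 bases before the start. The TLR3 window held 2 STAT-type sites, at 178 to 170 and 50 to 42 bases before the start. The NOD1 window held none of the 4 motifs and had 74.0% G and C. Of the windows not printed, PYCARD, which fell, held 1 PU.1 core at 30 to 25 bases before the start, TLR6, which was not called, held 1 at 195 to 190 bases, and TLR2 held none of the motifs. By the GENCODE spans, all 250 bases of the PYCARD window and 210 of the TLR2 window lie inside the gene, and none of the TLR6 window. Among all 35116 promoters of this length, 23.6% held the PU.1 core, 6.57% the STAT-type site, 9.96% the NF-kB consensus and 6.57% the AP-1 site. No match overlapped a match to another motif. Of the 10 members, 7 had a window in the RefSeq table, and none of the 7 held the NF-kB or AP-1 letters. SPI1, the gene of PU.1 and a marker of myeloid cells, had 0 to 4 counts in every library. A match is a run of letters and was not shown here to be a binding site.

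Among the members that are cell surface receptors, TLR4 changed most. TLR4 (ENSG00000136869.16, chr9:117704175-117724735, plus strand) had 1.85, 2.03 and 2.61 CPM in HG-NC, against 6.34, 5.91 and 6.69 CPM in HG-OE. The lowest HG-OE library was more than 2-fold above the highest HG-NC library, on 47 to 73 counts in HG-NC and 172 to 196 in HG-OE. Its log2 fold change was 1.54 (SE 0.158, edgeR adjusted p = 2.70e-06), a 2.91-fold rise with a 95% interval of 2.30 to 3.68. Without HG-OE replicate 3 the log2 fold change was 1.49. Even after the rise TLR4 was a scarce transcript.

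The partners that bring lipopolysaccharide to TLR4 did not move as a unit. CD14, which hands the lipid to the receptor, had 3.15, 2.88 and 2.83 CPM in HG-NC, against 4.14, 4.84 and 14.6 CPM in HG-OE. It rose with a log2 fold change of 1.41 (SE 0.371, edgeR adjusted p = 0.00573), and 0.61 without HG-OE replicate 3, so the size of the rise rests on that library. LY96, which encodes the MD-2 subunit that binds the lipid, had 3.83 ± 0.433 CPM in HG-NC, against 3.83 ± 0.955 CPM in HG-OE, with an edgeR adjusted p of 0.989.

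TLR2 was the most abundant of the receptors and did not pass the test. TLR2 (ENSG00000137462.9, chr4:153684070-153706260, plus strand) had 22.1, 22.9 and 22.04 CPM in HG-NC, against 21.8, 20.2 and 17.1 CPM in HG-OE. All 3 HG-OE values lay below the HG-NC values, the highest of them only just. The log2 fold change was -0.18 (SE 0.0843, edgeR adjusted p = 0.0885), with a 95% interval of -0.36 to 0.00, and -0.09 without HG-OE replicate 3. Leaving out HG-OE replicate 1 instead gave -0.26 and a call (edgeR adjusted p = 0.0265).

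TLR6, the partner of TLR2 for diacylated lipopeptides, also did not pass. TLR6 (ENSG00000174130.12, chr4:38822897-38856817, minus strand) had 6.69, 6.28 and 6.76 CPM in HG-NC, against 6.79, 7.80 and 6.999 CPM in HG-OE. The groups touched at their edges without overlapping, and the log2 fold change was 0.13 (SE 0.111, edgeR adjusted p = 0.350, 95% interval -0.11 to 0.37), and 0.15 without HG-OE replicate 3. TLR1, the other partner of TLR2 and a neighbour whose exons share 0.832% of the TLR6 exon bases, fell by 1.5 on the log2 scale (SE 0.389, edgeR adjusted p = 0.00519), on 24, 33 and 30 counts in HG-NC and 19, 6 and 8 in HG-OE. TLR5, the flagellin receptor, was the only other Toll-like receptor outside the members with enough counts, and it fell by 1.78 (SE 0.542, edgeR adjusted p = 0.0137) from 0.521 ± 0.119 CPM to 0.148 ± 0.12 CPM, a call lost with DESeq2 (adjusted p = 0.0652). TLR7, TLR8, TLR9 and TLR10 had at most 3 counts in any library.

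TLR3, which sits in endosomes and signals through TICAM1 (TRIF) and not MYD88, moved the other way from TLR4. TLR3 (ENSG00000164342.13, chr4:186068911-186088073, plus strand) had 9.36, 9.38 and 9.73 CPM in HG-NC, against 6.96, 6.73 and 7.10 CPM in HG-OE. The replicates were tight and the groups were far apart. It fell by 0.45 on the log2 scale (SE 0.0982, edgeR adjusted p = 0.00155), and by 0.47 without HG-OE replicate 3. TICAM1 fell with a similar size, by 0.47 (SE 0.0683, edgeR adjusted p = 6.74e-05), from 46.9 ± 3.02 CPM to 34.0 ± 2.88 CPM.

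MYD88 was the adaptor with the clearest rise. MYD88 (ENSG00000172936.16, chr3:38138552-38143024, plus strand) had 8.18, 9.31 and 9.02 CPM in HG-NC, against 20.02, 21.8 and 25.7 CPM in HG-OE. Every HG-OE library was more than 2-fold above every HG-NC library. The log2 fold change was 1.35 (SE 0.101, edgeR adjusted p = 1.61e-07), a 2.55-fold rise with a 95% interval of 2.19 to 2.96, and 1.24 without HG-OE replicate 3. TIRAP, which bridges MYD88 to TLR2 and TLR4, had 3.10 ± 0.505 CPM in HG-NC, against 3.24 ± 0.400 CPM in HG-OE (edgeR adjusted p = 0.789). The count of MYD88 per count of TICAM1 within a library went from 0.188 ± 0.00818 in HG-NC to 0.670 ± 0.140 in HG-OE, a ratio formed after the values were seen and given without a test.

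Of the adaptors and kinases, the shares called were close to those of all genes. Of 14 adaptors and kinases listed, all 14 were tested, 4 rose (TICAM2, IRAK2, TAB1 and IKBKE), 4 fell (TICAM1, IRAK4, TRAF3 and TAB2) and 6 did not pass, 28.6% in each direction where 25.9% of all genes were called in each, with a median log2 fold change of 0.011. IRAK4 was lost without HG-OE replicate 3 (edgeR adjusted p = 0.123) and with DESeq2 (adjusted p = 0.0850), and TICAM2 with DESeq2 (adjusted p = 0.0757). After the neighbours' median was removed, TICAM2, IRAK2 and TAB1 were not called (edgeR adjusted p = 0.540, 0.326 and 0.877). IRAK1 (-0.30, edgeR adjusted p = 2.21e-05) and TAB3 (0.25, edgeR adjusted p = 0.00293), which did not pass before, were then called. IKBKE, an IKK-related kinase upstream of interferon regulatory factors, rose most, from 4.34 ± 0.663 CPM to 10.6 ± 0.430 CPM (log2 fold change 1.29, SE 0.123, edgeR adjusted p = 1.42e-06). IRAK2, a kinase of the complex that MYD88 assembles, rose by 0.50 (SE 0.0606, edgeR adjusted p = 1.18e-05). TAB2, which couples ubiquitin chains to the kinase TAK1, fell by 0.84 (SE 0.0451, edgeR adjusted p = 7.92e-09), and was at -0.40 after the neighbours' median was removed. Of 4 brakes on the pathway, SIGIRR rose with a log2 fold change of 0.39 (SE 0.102, edgeR adjusted p = 0.00547), and IRAK3, TOLLIP and SARM1 did not pass. SARM1 was called after the neighbours' median was removed (0.72, edgeR adjusted p = 0.0232).

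NOD1 rose while its kinase fell. NOD1 (ENSG00000106100.11, chr7:30424527-30478784, minus strand) had 3.46, 3.69 and 3.36 CPM in HG-NC, against 7.51, 6.35 and 6.86 CPM in HG-OE. The groups were far apart, and the log2 fold change was 0.98 (SE 0.128, edgeR adjusted p = 2.53e-05), a 1.97-fold rise with a 95% interval of 1.63 to 2.39. It was also 0.98 without HG-OE replicate 3. RIPK2, the kinase that NOD1 recruits, had 138, 147 and 145 CPM in HG-NC, against 85.9, 80.6 and 78.2 CPM in HG-OE, and fell by 0.81 (SE 0.0458, edgeR adjusted p = 1.18e-08). Of the 4 genes of the NOD1 branch that were tested, RIPK2, ERBIN and SLC15A4 fell, 3 of 4 where 25.9% of all genes fell, and XIAP did not pass. XIAP was called lower after the neighbours' median was removed (-0.19, edgeR adjusted p = 0.00683). The groups overlapped for SLC15A4, which was lost without HG-OE replicate 3 (edgeR adjusted p = 0.104) and with DESeq2 (adjusted p = 0.0785). Within a library, NOD1 had 0.0245 ± 0.00113 counts per count of RIPK2 in HG-NC and 0.0847 ± 0.00507 in HG-OE, again a ratio formed after the values were seen.

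**Figure D2:**
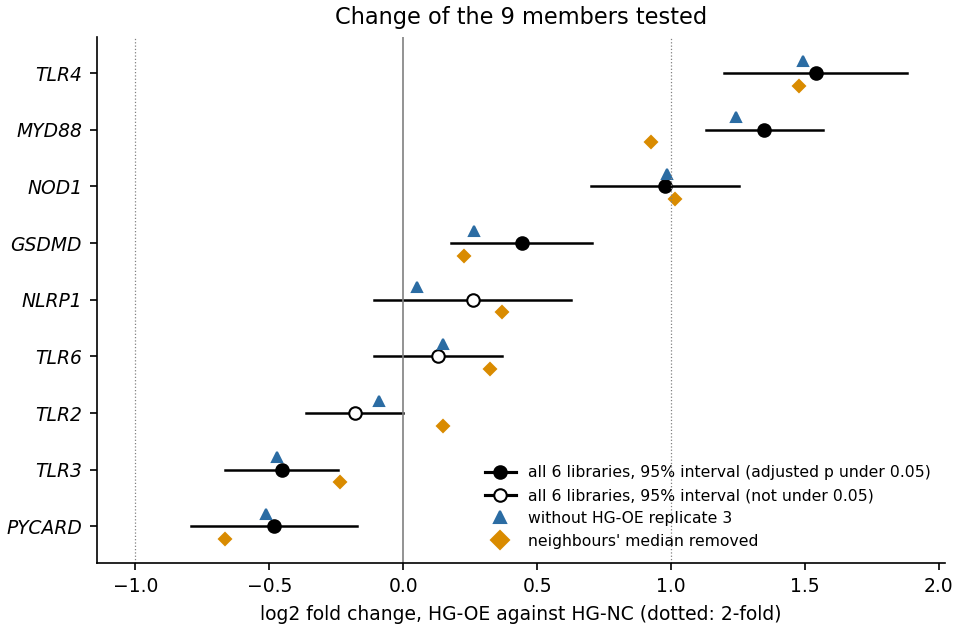
Log2 fold change of HG-OE against HG-NC for the 9 genes tested, with circles and 95% intervals from all 6 libraries (filled where the adjusted p was under 0.05), triangles for the fit without HG-OE replicate 3 and diamonds after the median change of neighbouring genes was removed. TLR4 (1.54) and NOD1 (0.98) move little under either change, and MYD88 falls from 1.35 to 0.92 once its neighbours are removed.

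Some members lie in stretches of chromosome whose genes moved together. The median change of the genes within 10 Mb was subtracted from that of each gene, and the remainder was tested. Around MYD88 on chromosome 3, 86 neighbours had a median of 0.43, and 0.92 of the MYD88 change remained (edgeR adjusted p = 7.78e-06), which is under 2-fold. The 3 receptors on chromosome 4 had neighbours that were lower in HG-OE, with medians of -0.33 around TLR2, -0.22 around TLR3 and -0.19 around TLR6. After removal the TLR3 change was -0.24 and no longer passed (edgeR adjusted p = 0.0637), TLR2 turned to 0.15 (edgeR adjusted p = 0.170), and TLR6 reached 0.32 and passed (edgeR adjusted p = 0.0287). TLR4 and NOD1 kept 1.48 and 1.01, their neighbours' medians being 0.063 and -0.036. IRAK2, also on chromosome 3, kept 0.08 of its 0.50. The part of these shared shifts in the members' changes was not tested otherwise.

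NLRP1, an inflammasome sensor that is active in epithelia, did not pass the test. NLRP1 (ENSG00000091592.16, chr17:5499415-5619424, minus strand) had 5.23, 7.61 and 5.83 CPM in HG-NC, against 6.55, 6.39 and 9.42 CPM in HG-OE. The groups overlapped, and HG-OE replicate 3 was the highest library. The log2 fold change was 0.26 (SE 0.171, edgeR adjusted p = 0.224, 95% interval -0.11 to 0.63), and 0.05 without that library. An unnamed gene on the same strand that shares 7.44% of the NLRP1 exon bases, ENSG00000286190, had 43 to 62 counts in HG-NC and 77 to 120 in HG-OE, and how reads were divided between the 2 is not given in the sources used here.

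Of the other inflammasome sensors listed, only CARD8 was above 1 CPM. CARD8, which like NLRP1 is held in check by dipeptidyl peptidases, had 12.4 ± 0.947 CPM in HG-NC, against 11.3 ± 0.846 CPM in HG-OE (edgeR adjusted p = 0.258). NLRP3, the best known sensor of sterile damage, had 2, 0 and 1 counts in HG-NC and 1, 0 and 2 in HG-OE, too few to compare. AIM2 had 0 to 10 counts and NLRC4 0 to 3 in any library, and a count of 0 allows up to 3 counts. NLRP2 had 20 counts in HG-OE replicate 3 and 0 in the other 5 libraries. MEFV, which encodes pyrin, passed with a log2 fold change of 1.85 (SE 0.495, edgeR adjusted p = 0.00654) on 2, 5 and 4 counts in HG-NC and 11, 20 and 13 in HG-OE, a call lost with DESeq2 (adjusted p = 0.0533). TXNIP, a glucose-induced protein linked to NLRP3, fell by 0.98 (SE 0.0781, edgeR adjusted p = 2.77e-07) from 464 ± 26.3 CPM to 236 ± 33.5 CPM.

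PYCARD, the adaptor ASC that links sensors to caspase-1, fell. PYCARD (ENSG00000103490.14, chr16:31201486-31203450, minus strand) had 4.01, 4.62 and 4.40 CPM in HG-NC, against 3.17, 2.92 and 3.24 CPM in HG-OE. The groups did not overlap, and it fell by 0.48 on the log2 scale (SE 0.144, edgeR adjusted p = 0.0124), and by 0.51 without HG-OE replicate 3. The call was lost with DESeq2 (adjusted p = 0.0676) and without HG-NC replicate 2 (edgeR adjusted p = 0.0562). The antisense gene PYCARD-AS1 covers 59.7% of the PYCARD exon bases and was counted at 8, 4 and 12 in HG-NC and 11, 1 and 4 in HG-OE, against 102 to 125 and 85 to 95 counts of PYCARD. The strand setting of the counting is not given in the sources used here, so reads of the pair may not be told apart.

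CASP1 was barely expressed and could not be tested after the filter on low counts. CASP1 (ENSG00000137752.24, chr11:105025397-105035250, minus strand) had 5, 3 and 6 counts in HG-NC and 9, 7 and 50 in HG-OE. HG-OE replicate 3 alone held 75.8% of the HG-OE counts. In the other 2 HG-OE libraries its rate was 1.58 times that of HG-NC, on 16 and 14 counts, with a 95% interval of 0.722 to 3.49 that covers counting error only. With no filter the edgeR log2 fold change over all libraries was 2.06 (SE 0.606, adjusted p = 0.0101), and it rests on that library. CARD16, a neighbour on chromosome 11 that resembles the CASP1 prodomain, followed the same pattern with 1, 3 and 0 counts in HG-NC and 2, 2 and 37 in HG-OE. Whether reads of CASP1 and CARD16 were told apart was not tested. CARD18 had 15 counts in HG-OE replicate 3 and 0 in the other 5 libraries.

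CASP4 on the same stretch of chromosome 11 (chr11:104942866-104969366, minus strand), which encodes the caspase that binds cytosolic lipopolysaccharide and cuts gasdermin D without an inflammasome sensor, rose in every HG-OE library. It had 1.49, 1.48 and 1.65 CPM in HG-NC, against 7.79, 5.77 and 15.6 CPM in HG-OE. The log2 fold change was 2.66 (SE 0.310, edgeR adjusted p = 8.71e-06), and 2.13 without HG-OE replicate 3, where it was still called (edgeR adjusted p = 4.64e-15). CASP8, an initiator of apoptosis, fell by 0.53 (SE 0.0536, edgeR adjusted p = 2.25e-06). Its neighbours were lower as well, and after their median was removed the CASP8 value was -0.11 (edgeR adjusted p = 0.0994).

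GSDMD, the pore-forming target of both caspases, rose modestly. GSDMD (ENSG00000104518.11, chr8:143553207-143563062, plus strand) had 11.8, 12.3 and 12.0 CPM in HG-NC, against 15.3, 13.6 and 20.1 CPM in HG-OE. All HG-OE values were above all HG-NC values, with HG-OE replicate 3 the highest. The log2 fold change was 0.44 (SE 0.122, edgeR adjusted p = 0.00785), and 0.26 without that library (edgeR adjusted p = 0.0146). It was not called in any of 3 limma fits on log2 FPKM (adjusted p = 0.0527 to 0.128), and it was 0.23 and not called after the neighbours' median was removed (edgeR adjusted p = 0.148). Of the cargo that leaves through the pore, IL18 rose with a log2 fold change of 0.30 (SE 0.0604, edgeR adjusted p = 0.000993), from 34.4 ± 1.92 CPM to 42.2 ± 2.33 CPM. IL1B had 17, 29 and 34 counts in HG-NC and 16, 22 and 62 in HG-OE, with a log2 fold change of 0.21 (edgeR adjusted p = 0.715) that turned to -0.60 without HG-OE replicate 3.

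**Figure D3:**
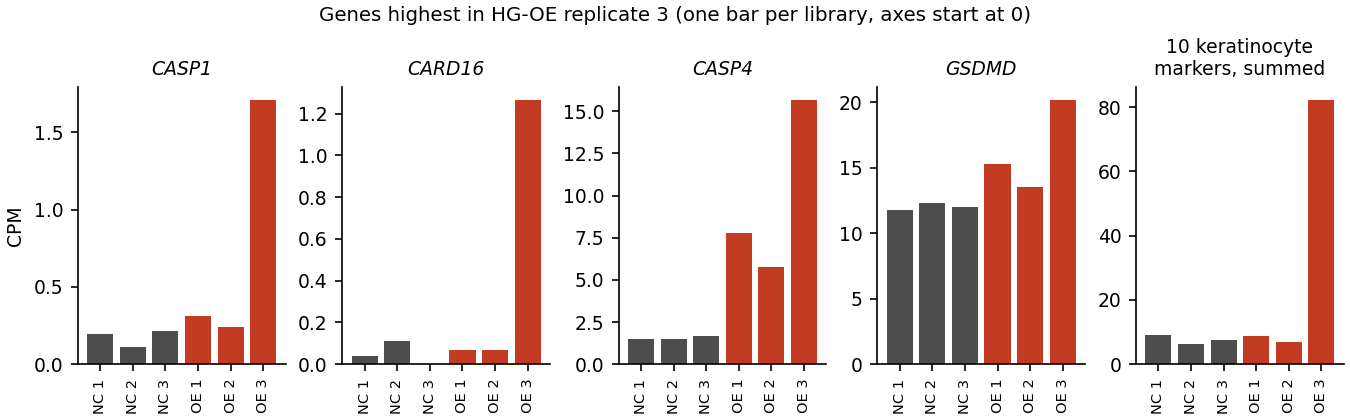
CPM of CASP1, CARD16, CASP4 and GSDMD and the summed CPM of 10 keratinocyte markers, 1 bar per library, HG-NC in grey and HG-OE in red, each axis from 0. HG-OE replicate 3 is the highest in all 5 panels, while CASP4 is also raised in HG-OE replicates 1 and 2 (7.79 and 5.77 CPM against at most 1.65 CPM in HG-NC).

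HG-OE replicate 3 was the highest of the 6 libraries for 5 of the 10 members. The share of all genes highest there was not computed, so this count is a description only. It also had the most genes with a count, 26423 against 24342 to 25012 in the others. Markers of other epithelia were high there as well. All 10 keratinocyte markers in the table were highest in that library, with a summed level of 82.1 CPM, against 6.43 to 9.01 CPM in HG-NC and 6.94 to 8.72 CPM in the other HG-OE libraries. Of 12 hepatocyte markers 10 were highest there, and the 11 besides SERPINA1 summed to 268 CPM there, 5.0 and 5.1 CPM in the other HG-OE libraries and 1.85 to 10.2 CPM in HG-NC. SERPINA1, which made up most of the list elsewhere, was at 258 to 275 CPM in HG-NC, and HG-OE replicates 1, 2 and 3 had 457, 458 and 395 CPM. The 5 members were TLR4, MYD88, NLRP1, CASP1 and GSDMD, and the part of these markers' cell types in their values was not tested. Markers of blood cells, in which these receptors are most abundant, were also summed. Their level was 11.4 to 12.4 CPM in HG-NC and 6.90 to 7.37 CPM in HG-OE, mostly from CSF1R, FCER1G and CD68. Others on the list, such as PTPRC, SPI1 and AIF1, had higher means in HG-OE, at under 1 CPM. LYZ was highest in HG-OE replicate 3. Of the 12 blood cell markers in the table, 8 stayed under 1 CPM in every library. PTPRC, which defines leukocytes, had 1 or 2 counts in each. In bulk libraries, fewer cells with a transcript and less of it per cell cannot be told apart.

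Set per transcript length and depth, as FPKM, the rises changed the order of the genes. In HG-NC the order was TLR2 (3.46 FPKM), PYCARD (2.34), GSDMD (2.11), MYD88 (1.98), TLR3 (1.26), TLR6 (0.977), NLRP1 (0.477), NOD1 (0.457), TLR4 (0.147) and CASP1 (0.0433). PYCARD, GSDMD and MYD88 did not differ in turn beyond the range of their libraries, nor did NLRP1 and NOD1. In HG-OE the order was MYD88 (5.0 FPKM), TLR2 (3.02), GSDMD (2.84), PYCARD (1.66), TLR6 (1.06), TLR3 (0.910), NOD1 (0.897), NLRP1 (0.563), TLR4 (0.423) and CASP1 (0.180). Here TLR2 and GSDMD overlapped, as did TLR3 and NOD1, and TLR4 and CASP1. MYD88 thus went from the fourth place to the first, while TLR4 stayed ninth in both groups despite having the largest fold change of the members tested.

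**Figure D4:**
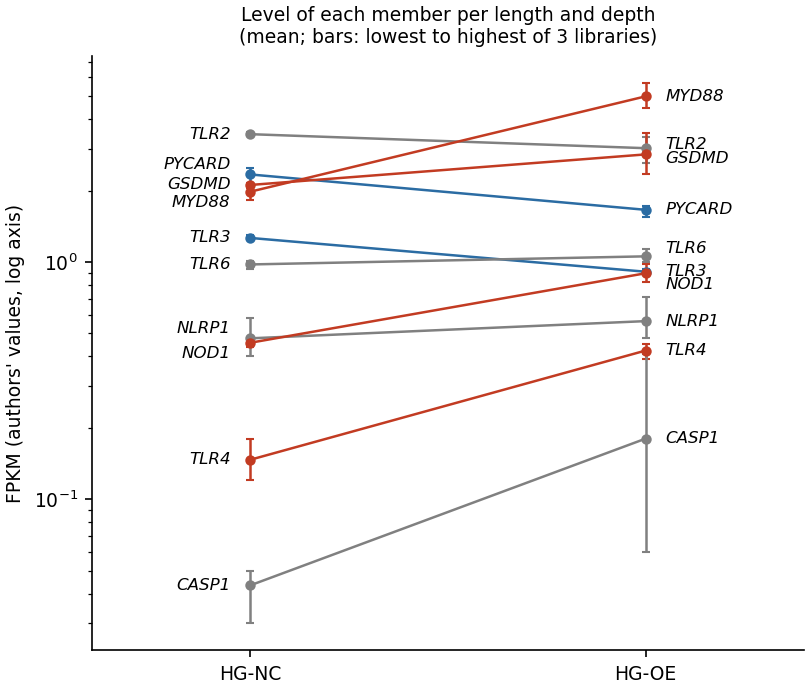
Mean FPKM of each gene in HG-NC and HG-OE on a log axis, with bars from the lowest to the highest library, in red for genes that rose, blue for genes that fell and grey for genes not called or not tested. MYD88 climbs from 1.98 to 5.0 FPKM and passes TLR2, while the CASP1 bar in HG-OE is wide because 1 library stands apart.

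Beyond the 10 members, 76 partners and relatives were listed, of which 70 were in the table and 50 had enough counts. Of the 50, 12 rose (24.0%, against 25.9% of all genes), 18 fell (36.0%, against 25.9%) and 20 did not pass, with a median log2 fold change of 0.00. Those past 2-fold were CD14, IKBKE, MEFV and CASP4 upwards and TLR1 and TLR5 downwards, of which MEFV and TLR5 were not called by DESeq2. CD14 was at 0.61, under 2-fold, without HG-OE replicate 3. After the neighbours' median was removed, 13 of the 50 were called higher and 20 lower. Of 7 genes of cytosolic nucleic acid sensing tested, 6 fell (85.7%, against 25.9% of all genes, a description with no test of the list) and MAVS, the mitochondrial adaptor of the RNA sensors, rose with a log2 fold change of 0.27 (SE 0.0444, edgeR adjusted p = 0.000175). STING1, the adaptor for cytosolic DNA, fell by 0.96 (SE 0.106, edgeR adjusted p = 5.09e-06) from 10.9 ± 0.198 CPM to 5.59 ± 0.491 CPM. IFIH1, which encodes the RNA sensor MDA5, fell by 0.92 (SE 0.101, edgeR adjusted p = 5.28e-06) from 17.0 ± 1.49 CPM to 9.03 ± 0.987 CPM. RIGI, DHX58, CGAS and IFI16 fell by 0.23 to 0.39, and DHX58 was not called after the neighbours' median was removed (edgeR adjusted p = 0.291). TLR3, which reads double-stranded RNA from the endosome, also fell, as given above.

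**Figure D5:**
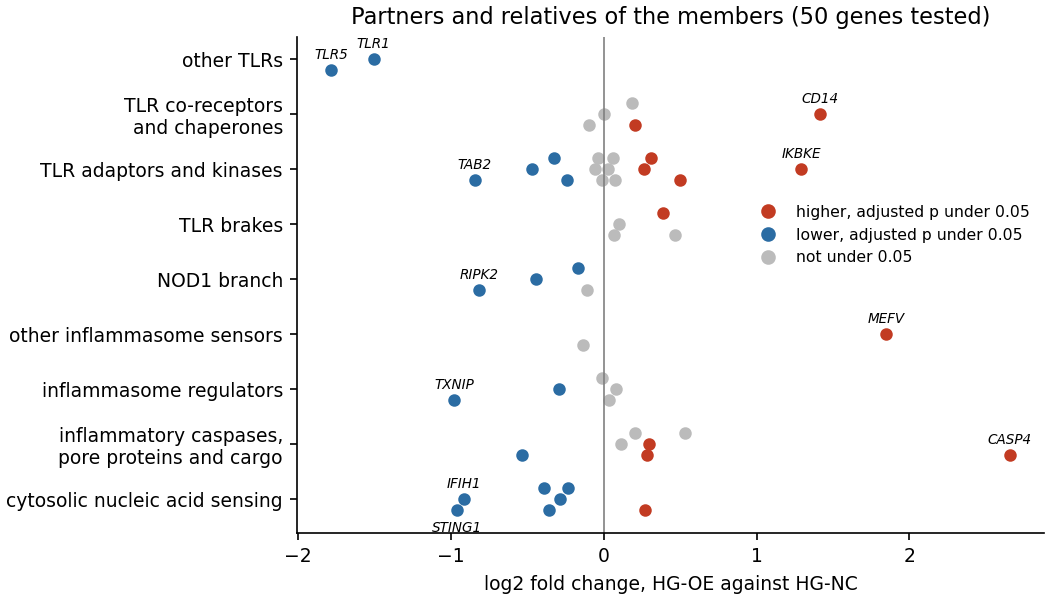
Log2 fold change of the 50 partner genes tested, by list, in red where higher and blue where lower at an adjusted p under 0.05, grey otherwise, with names for called genes at 0.7 or more in size. CASP4 (2.66), MEFV (1.85), CD14 (1.41) and IKBKE (1.29) lie to the right, and TLR5 (-1.78) and TLR1 (-1.5) to the left.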

How the data were processed

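RNA from HK-2 cells was sequenced by the authors as directional poly(A) libraries with paired 150-nt reads, which were aligned to GRCh38 with HISAT2 allowing 4 mismatches. The authors deposited unique-read counts per gene, not normalized, and FPKM values; the counting tool, its strand setting and the annotation release are not given in the sources used here. Whether a batch adjustment that the methods name entered the counts is not stated. The 3 HG-NC and 3 HG-OE libraries were grouped by the treatment in the labels.

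Counts were tested in edgeR 4.0.16 (R 4.3.3) by the quasi-likelihood test with TMM scaling, after filterByExpr left 17142 genes, with Benjamini-Hochberg adjustment over all of them. Genes were called at an adjusted p under 0.05. With 3 libraries a group an exact permutation test cannot go below 0.1, so no such p is given. FPKM ranks levels between genes; alternatives used DESeq2 1.42.0 and limma 3.58.1 on log2(FPKM + 1) and log2(FPKM + 0.1). Neighbours were genes of at least 100 mean counts within 10 Mb, at least 5 of them. The p-values after removal of their median come from a t-test with the edgeR SE, the median being taken as known. Coordinates come from GENCODE v44 on GRCh38, matched by gene ID without version (17110 of 17142 genes placed; 5 of the 10 member IDs have the same version). Promoters come from the RefSeq table. The main edgeR fit, the replicate block, DESeq2 and limma with 1 added before the log were tested on simulated data. The other alternatives, the removal of the neighbours' median among them, were not. The members, lists and motifs were chosen with earlier results of these data known. All members were named, with HNRNPF, fixed partners (CD14, LY96, TIRAP, TICAM1, IRAK2, RIPK2, NLRP3, CARD8, CASP4, IL1B, IL18) and listed genes with an adjusted p under 0.05, a log2 change of at least 0.5 and a mean of at least 20 counts, up to 15; other genes were named after their values were seen. Intervals on single counts are exact Poisson at 95% and cover counting error only.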

Additional observations from a re-analysis of the deposited data

How the results depend on the processing

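Of 15 alternatives, the count of 4 higher calls ranged from 3 to 5, CASP1 being the fifth with no filter and with DESeq2, and after removal of the neighbours' median the 4 were TLR4, MYD88, NOD1 and TLR6. The lower calls went from 2 to 1 with the DESeq2 Wald test and to 1 with the neighbours' median removed, and ranged from 1 to 3 when single libraries were left out. The 2-fold higher calls went from 2 to 1 with limma on log2(FPKM + 1), filtered or not. They went to 3 in the edgeR fit with no low-count filter and with the DESeq2 Wald test. They ranged from 2 to 3 when single libraries were left out. GSDMD and CD14 were lost in all 3 limma fits. TLR2 turned to 0.15 with the neighbours' median removed. LY96, at 0.00, turned to -0.0097 with no filter, -0.0014 with DESeq2, -0.030 with limma on log2(FPKM + 1), filtered or not, and -0.038 with log2(FPKM + 0.1), and ranged from -0.15 to 0.19 when libraries were left out, TIRAP from -0.030 to 0.20 and IL1B from -0.60 to 0.53. The cause of these changes was not tested. Same-numbered libraries did not deviate together (correlations of -0.027, 0.030 and -0.001). The labels do not say whether the numbers mark shared cultures, and these correlations cannot settle it. A replicate block gave 4 higher and 2 lower members, 2 of them past 2-fold higher and 0 lower. It gave 12 higher and 18 lower partners, and LY96 at -0.014. Over 27 named genes and all alternatives, 377 of 404 values kept their direction and side of the threshold. Depth limits CASP1 and NLRP3, whose counts in HG-NC were 6 or fewer.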
